A study of Mus musculus with 48 samples.

Results

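Wild-type (WT) mouse embryonic fibroblasts (MEFs) were compared between day 4 and day 8 of their conversion into brown-like adipocytes, the middle step of a course sampled at days 0, 4, 8 and 12. The comparison holds 6 of the 48 RNA-seq libraries of the series, the 3 WT MEF libraries of day 4 and the 3 of day 8, chosen by genotype, cell type and day alone. The MEFs came from mid-gestation C57BL/6 embryos, were used at low passage, and were induced after confluence with insulin, dexamethasone, IBMX, triiodothyronine (T3) and rosiglitazone for 8 days, then kept in insulin and T3 for 4 days. Both days therefore fall within the period in the induction medium, and all 6 libraries share the genotype and every agent. The labels call the cells of both days differentiating MEFs and give the name adipocytes to day 12. The study set these cells beside double knockout (DKO) MEFs in which Hmgn1 and Hmgn2, whose proteins bind nucleosomes, are inactivated. Replicates are numbered 1 to 3 at each day, and the study describes its MEF data as coming from biological replicates, without saying whether these were separate embryos or separate cultures.

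Adipogenesis in culture runs from a hormonal trigger to lipid storage. IBMX keeps cyclic AMP high by blocking phosphodiesterases, dexamethasone activates the glucocorticoid receptor, and the C/EBP factors they induce give way to PPARG, the receptor bound by rosiglitazone, which switches on the genes of lipid uptake, storage and release. Confluent cells usually divide again after induction, and a fibroblast matrix rich in fibrillar collagen is remodelled as the cells fill with fat. MEFs are a mixed population, and in bulk RNA fewer cells of a type cannot be told apart from less RNA of that type per cell.

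Libraries of the same day were not alike, and this bears on every value that follows. The 6 libraries held 18962483 to 33026072 counts (median 23224309), with 6.77% to 8.80% of a library in its 10 leading genes. By chi-square per degree of freedom between pairs of libraries, replicate 1 of day 4 differed from replicates 2 and 3 by 77.3 and 78.3, while these differed from each other by 6.30. At day 8 replicate 2 differed from replicates 1 and 3 by 82.2 and 88.1, against 2.11 between replicates 1 and 3. Every pair differed by more than sampling noise, which would give about 1, so each library was counted as 1 replicate. On the second principal component of the 12 WT libraries, which orders days 4, 8 and 12, the day 4 libraries lay at 9.49, 54.0 and 53.6 and the day 8 libraries at -12.6, 33.2 and -13.1. Replicate 1 of day 4 thus lay nearer to day 8, and replicate 2 of day 8 nearer to day 4, than the other libraries of their day. In CPM, each library's counts scaled by TMM to a common total, the first exceeded the second in 7861 of 15345 genes tested, or 51.2%. The cause was not tested, and results are given with and without these 2 libraries.

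**Figure D1:**
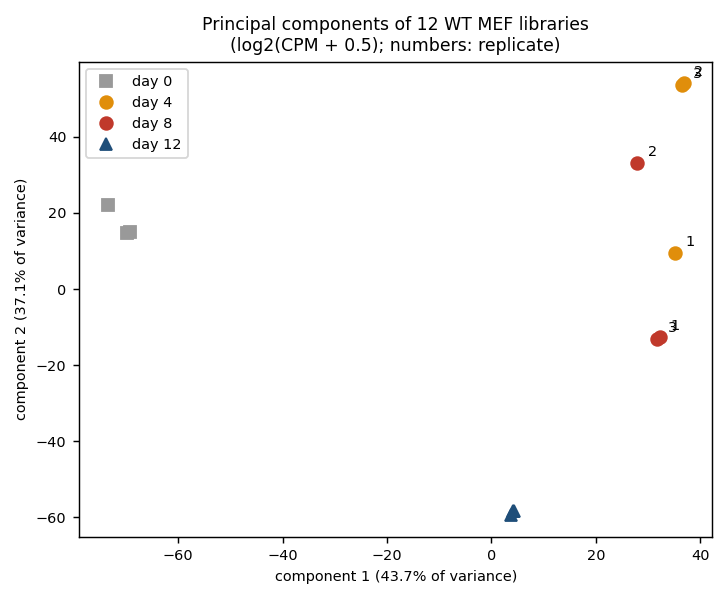
Principal components of log2(CPM + 0.5) in the 12 WT MEF libraries, coloured by day, with the replicate number beside the libraries of days 4 and 8. Replicate 1 of day 4 and replicate 2 of day 8 lie between the other day 4 libraries (54.0 and 53.6 on the second component) and the other day 8 libraries (-12.6 and -13.1).

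How many genes passed a test between day 4 and day 8 depended on how the spread between libraries was estimated. With edgeR's quasi-likelihood test, 0 of 15345 genes passed a Benjamini-Hochberg adjusted p-value of 0.05 and a fold change of 1.5 (0.0%), and the smallest adjusted p in edgeR was 0.258. At an unadjusted p under 0.05 stood 2248 genes (14.6%), of which 1078 (7.03%) had the higher level at day 8 and 1170 (7.62%) at day 4. DESeq2 called 279 genes (1.82%), 173 higher (1.13%) and 106 lower (0.691%) at day 8. One edgeR fit over all 4 days, in which the tight libraries of days 0 and 12 share the estimate of the spread, called 282 of 16359 genes (1.72%), 168 higher (1.03%) and 114 lower (0.697%). Without replicate 1 of day 4 edgeR called 308 genes, and without replicate 2 of day 8 it called 284, while leaving out any other library gave 0 calls. Without both, 4176 of 15602 genes were called (26.8%), 2182 higher (14.0%) and 1994 lower (12.8%). These 2 libraries were set aside because of their values, so that last count describes the remaining 4 libraries and is no independent test. The genes described below are therefore sorted by a plain property of the 6 libraries, whether all 3 day 8 values lay above, or all 3 below, the 3 day 4 values. This held for 1214 genes above (7.91%) and 1563 below (10.2%), and for any single gene an exact permutation test of 3 against 3 libraries cannot go below p = 0.1. The split depends on scaling. With library size alone the median log2 fold change of all genes moved from -0.00 to -0.15, and 565 genes lay above and 3105 below, so that 15.4% of the separated genes were higher in place of 43.7%.

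The main adipocyte genes had higher mean levels at day 8 and a wide spread between libraries of 1 day. Fabp4 encodes the abundant fatty acid carrier of adipocytes, and its transcripts stood at 1464, 222 and 206 CPM in replicates 1, 2 and 3 of day 4 and at 2824, 406 and 2712 CPM in those of day 8. Adipoq, the gene of the hormone adiponectin, had 89.5, 4.96 and 3.90 CPM at day 4 and 250.4, 20.02 and 245 CPM at day 8. Replicate 1 of day 4 exceeded replicate 2 of day 8 for both genes, so the days overlapped, whereas the other 2 libraries of day 8 were above all 3 of day 4. Cidec, which promotes the fusion of lipid droplets, followed the same pattern at 75.98, 5.31 and 5.69 CPM and then 268, 19.1 and 288 CPM. Plin1 coats the droplets, with 158, 14.7 and 17.7 CPM at day 4 and 282, 76.7 and 289.9 CPM at day 8. Hormone-sensitive lipase, encoded by Lipe, had 99.1, 17.1 and 17.6 CPM and 207, 33.8 and 217 CPM. In these 3 lipid droplet genes too, replicate 1 of day 4 outranked replicate 2 of day 8. The edgeR log2 fold changes of the 5 genes, 1.67 ± 1.02 (SE) for Fabp4, 2.40 ± 1.44 for Adipoq, 2.73 ± 1.38 for Cidec, 1.78 ± 1.03 for Plin1 and 1.78 ± 0.95 for Lipe, did not pass (edgeR adjusted p = 0.418, 0.411, 0.367, 0.399 and 0.378). Without the 2 libraries they were 3.71, 5.82, 5.67, 4.15 and 3.63.

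Pparg, the receptor at the centre of the programme, was at 35.7, 19.3 and 18.7 CPM on day 4 and 44.7, 20.3 and 48.3 CPM on day 8. Its libraries fell into a high and a low set that crossed the days, replicates 2 and 3 of day 4 with replicate 2 of day 8 being low and the other 3 high. Hp, the acute-phase and adipocyte gene haptoglobin, kept the days apart, at 259, 37.04 and 38.5 CPM on day 4 and 836, 311 and 877 CPM on day 8 (log2 fold change 2.61 ± 0.90, edgeR adjusted p = 0.335). Of the 17 tested genes of lipid droplets and lipolysis 1 lay above and 2 below at day 8, with a median log2 fold change of 0.88 against -0.00 over all genes. In 15 of the 17 (88.2%, against 51.2% of all genes) replicate 1 of day 4 exceeded replicate 2 of day 8. The 2 below were Plin2, the droplet coat protein of many cell types (459, 455 and 445 CPM, then 303, 410.3 and 305 CPM), and Hilpda, an inhibitor of lipolysis induced by hypoxia and lipid. Among 24 adipokine and secreted protein genes 4 lay above and 1 below (median 0.66), among 26 adipogenic transcription factors 2 and 1 (median 0.32), and among 28 genes of fatty acid and triglyceride synthesis 1 and 2 (median 0.40). These shares are near the 7.91% and 10.2% of all genes, except the 16.7% of adipokine genes that lay above. Cebpd, a C/EBP factor of the early phase, and Ebf3 were the 2 transcription factors above, with Cebpd at 19.2, 15.3 and 18.6 CPM and 22.5, 22.5 and 22.8 CPM. Klf9, a glucocorticoid-responsive factor, lay below.

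**Figure D2:**
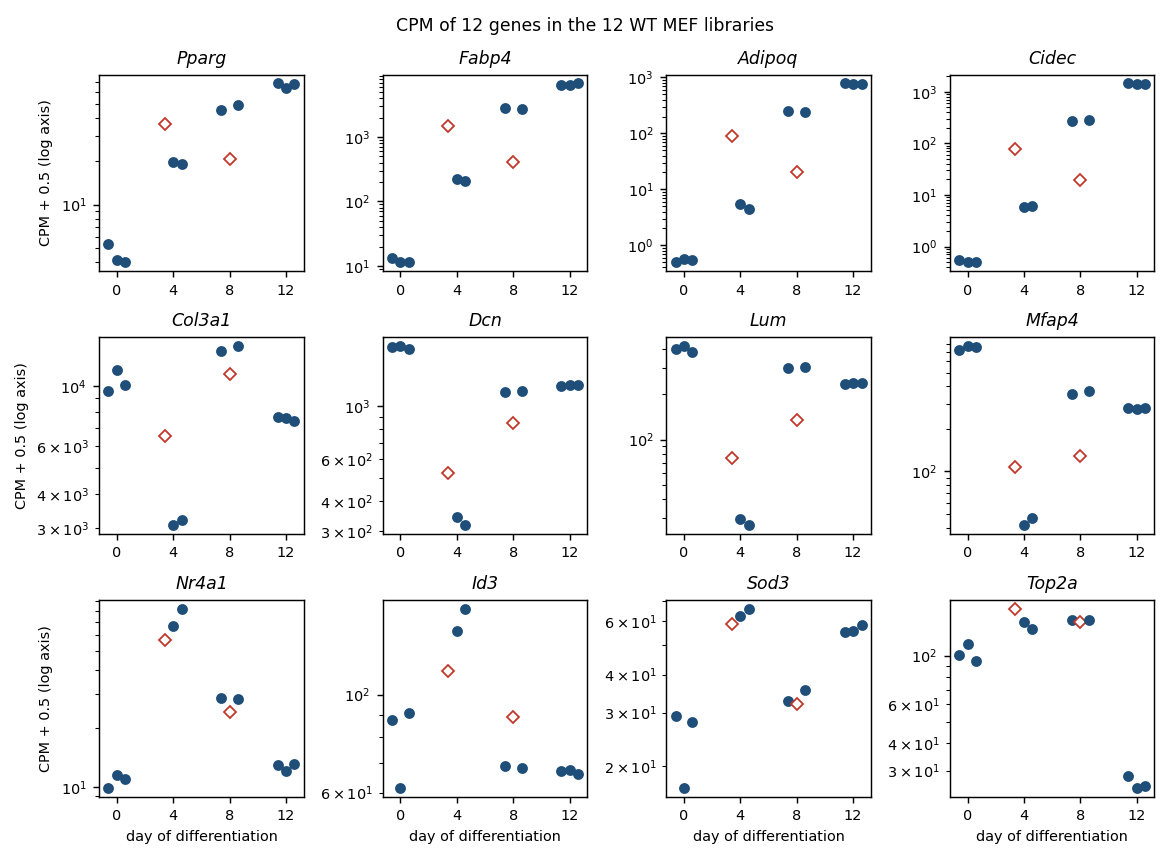
CPM plus 0.5 on a log axis against day of differentiation for 12 genes in the 12 WT MEF libraries, with open red diamonds for replicate 1 of day 4 and replicate 2 of day 8. In the 4 adipocyte genes of the top row the diamonds cross (Fabp4 at 1464 CPM on day 4 and 406 CPM on day 8), whereas in the matrix genes of the middle row every day 8 library lies above every day 4 library.

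In genes of the extracellular matrix the days separated more often than over all genes. Col3a1 encodes the chain of type III collagen, a fibrillar collagen of soft tissue (chromosome 1, 45311538 to 45349706, plus strand, mm10). Its transcripts rested at 6558, 3089 and 3213 CPM on day 4 and 13421, 11026 and 13972 CPM on day 8, 2.99 times as high in the mean. Col1a2, a chain of type I collagen, had 3407, 1274 and 1431 CPM and 6844, 3466 and 7192 CPM. Col5a1, whose product sets the diameter of collagen fibrils, had 1965, 1139 and 1251 CPM and 2719, 2339 and 2805 CPM. In all 3 genes replicate 1 was the highest library of day 4 and replicate 2 the lowest of day 8, yet the days did not overlap. Their log2 fold changes were 1.59 ± 0.32, 1.53 ± 0.47 and 0.86 ± 0.22 (edgeR adjusted p = 0.326, 0.331 and 0.329). DESeq2 passed all 3 (adjusted p = 8.27e-05, 0.0195 and 0.016), and the edgeR fit over 4 days passed Col3a1 and Col5a1 (adjusted p = 0.0159 and 0.0318) but not Col1a2 (0.0557). Over the 25 tested of 27 collagen chain genes 9 lay above (36.0%) and 1 below (4.0%), against 7.91% and 10.2% of all genes. The median log2 fold change of the list was 0.86. By unadjusted edgeR p under 0.05 the counts were 14 higher and 1 lower. The 9 held the type VI chains Col6a1 and Col6a2 beside the fibrillar and fibril-associated chains Col3a1, Col5a1, Col11a1, Col1a2, Col12a1 and Col14a1 and the basement membrane chain Col4a2. Col7a1, the anchoring fibril collagen of skin, ran the other way at 39.96, 49.7 and 54.8 CPM and 15.8, 35.1 and 17.4 CPM. The remaining tested chains overlapped between the days. Among them was Col1a1, the other chain of type I collagen, at 2360, 820 and 1009 CPM and 5043, 1903 and 5293 CPM. Collagen transcripts together made 30682, 17597 and 18655 CPM at day 4 and 47658, 36771 and 49489 CPM at day 8, with no overlap between the days.

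Among matrix glycoprotein genes some kept the days apart and others did not. Lum, the gene of lumican, a proteoglycan that spaces collagen fibrils, stood at 74.4, 29.1 and 26.6 CPM on day 4 and 298, 134 and 304 CPM on day 8. Dcn, decorin, of the same family, had 525, 343 and 318 CPM and then 1147, 853 and 1163 CPM. Fbn2, a fibrillin of microfibrils, had 408, 152 and 142 CPM and 833, 552 and 842 CPM. Again all 3 genes kept the days apart, and replicate 1 of day 4 and replicate 2 of day 8 were the libraries nearest to each other. Ogn and Fmod, proteoglycans of the same family, and Eln and Fbn1, of elastic fibres, overlapped instead, replicate 1 of day 4 lying above replicate 2 of day 8, as for Eln at 102, 22.5 and 28.4 CPM on day 4 and 573, 61.7 and 612 CPM on day 8. The log2 fold change of Dcn was 1.43 ± 0.23 and that of Lum 2.51 ± 0.52, neither past edgeR's threshold (adjusted p = 0.29 and 0.326), and both passed in the fit over 4 days (edgeR adjusted p = 0.00564 and 0.0228). Mfap4, a microfibril-associated glycoprotein outside the list, had 107, 41.4 and 46.5 CPM and 354, 127 and 371 CPM. Enzymes of collagen maturation were mixed, as Lox, Loxl2, P4ha1, P4ha2 and Plod1 kept the days apart with the higher levels at day 8, while Loxl1, Loxl3, Loxl4, P4ha3 and Plod2 overlapped. Lox, which crosslinks collagen and elastin, lay at 2845, 1889 and 1708 CPM and 3824, 3776 and 3701 CPM, and P4ha1, a subunit of prolyl 4-hydroxylase, at 138, 124 and 114 CPM and 191, 181 and 188 CPM. Replicate 2 of day 8 was close to its day for both enzymes, within 3701 to 3824 CPM for Lox. Of the 36 matrix glycoprotein and crosslinking genes, all tested, 14 lay above (38.9%) and 0 below, against 7.91% and 10.2% of all genes, with a median log2 fold change of 0.54. By unadjusted edgeR p under 0.05 the counts were 21 and 0, and DESeq2 called 9 higher and 0 lower.

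Among matrix proteases and their inhibitors the days separated for a part of the list, with the higher levels at day 8. Adamts5, an aggrecan-cleaving protease, had 164, 96.3 and 87.4 CPM at day 4 and 300.4, 269 and 305 CPM at day 8. Mmp2, a gelatinase that cleaves basement membrane collagen, had 867, 919 and 879 CPM and 1120, 1162 and 1113 CPM. The gap in Mmp2 was small, 0.36 ± 0.07 on the log2 scale, and here replicates 1 of day 4 and 2 of day 8 did not stand apart. Of 22 tested genes of 23, 8 lay above (36.4%) and 0 below (median 0.34), against 7.91% and 10.2% of all genes. By unadjusted edgeR p under 0.05 the counts were 9 higher and 2 lower. Timp2 and Timp3, inhibitors of such proteases, were among those above, while Mmp14, Mmp19, Adamts4 and Timp1 had negative log2 fold changes. Scaled by library size alone, 8 collagen, 13 glycoprotein and 6 protease genes lay above and 2, 1 and 1 below. Over all 15345 genes 565 lay above and 3105 below with that scaling. The fibroblast and progenitor markers had 3 above and 1 below of 21 tested (median 0.14), Dcn being among those above. Contractile genes of smooth muscle and myofibroblasts had 0 above and 1 below of 22 (median 0.03).

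**Figure D3:**
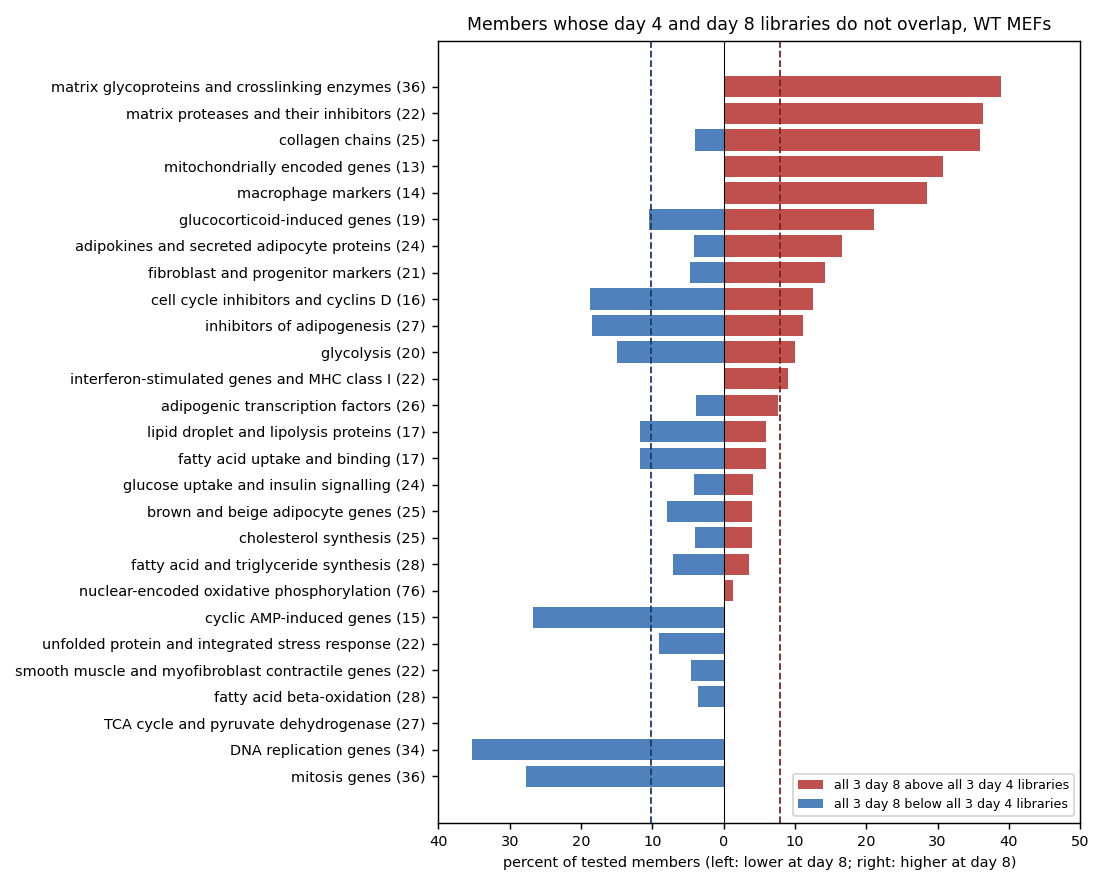
Percent of the tested members of each gene list (number tested in brackets) whose 3 day 8 libraries all lay above (red, right) or all below (blue, left) the 3 day 4 libraries, with dashed lines at the 7.91% and 10.2% of all 15345 genes tested. The 3 matrix lists reach 36.0% to 38.9% above, and the DNA replication and mitosis lists have members below and none above.

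In the replication and mitosis lists the genes whose days separated were lower at day 8, by small amounts. Of 34 DNA replication genes 0 lay above and 12 below (35.3%, against 10.2% of all genes), with a median log2 fold change of -0.23, and of 36 mitosis genes 0 lay above and 10 below (27.8%), with a median of -0.08. Rrm2, the inducible subunit of ribonucleotide reductase, had 119.6, 152 and 148 CPM at day 4 and 94.97, 116 and 94.8 CPM at day 8. Foxm1, a transcription factor that drives mitotic genes, had 25.4, 25.3 and 32.6 CPM and 17.8, 21.6 and 19.3 CPM. Mcm5, a subunit of the replicative helicase, had 45.9, 51.5 and 52.95 CPM and 43.7, 42.1 and 40.2 CPM. The days did not overlap in these 3 genes, but the log2 fold changes were only -0.45 ± 0.13, -0.49 ± 0.14 and -0.24 ± 0.09. Top2a, topoisomerase II alpha of dividing cells, kept nearly one level at 162, 142 and 131 CPM and 145, 142 and 144 CPM (log2 fold change -0.00 ± 0.09), and the sign of this value turned under 5 of the alternatives. Neither edgeR nor DESeq2 called a gene of these 2 lists, and by unadjusted edgeR p under 0.05 there were 9 replication and 5 mitosis genes lower and 0 higher. Without the 2 libraries edgeR called 8 replication genes lower and 0 higher, and 1 mitosis gene higher and 3 lower. Of all genes it then called 12.8% lower and 14.0% higher. The median of the mitosis list turned from -0.08 to 0.05. Among the 16 genes of cell cycle inhibitors and cyclins D, 2 lay above, Cdkn1b (the inhibitor p27) and Ccnd3, and 3 below, Rb1, Rbl1 and Trp53 (median -0.18).

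Genes induced by cyclic AMP and by glucocorticoids were described as separate lists, which share Per1 and Dusp1. Nr4a1, an orphan nuclear receptor and immediate target of cyclic AMP signalling (chromosome 15, 101254269 to 101274795, plus strand, mm10), stood at 56.2, 66.03 and 81.2 CPM on day 4 and 28.1, 23.9 and 27.7 CPM on day 8, with no overlap and with replicate 2 of day 8 the lowest of all. Its log2 fold change of -1.34 ± 0.15 was among those with the smallest p-values (edgeR adjusted p = 0.258), and it passed in the fit over 4 days (edgeR adjusted p = 0.0013) and in DESeq2 (adjusted p = 1.86e-09). Its relative Nr4a2 had 9.00, 18.2 and 16.4 CPM and 8.81, 8.44 and 7.43 CPM, and Pde4d, a phosphodiesterase that breaks cyclic AMP down, 38.7, 70.04 and 68.3 CPM and 28.95, 37.5 and 27.8 CPM. Of 15 cyclic AMP-induced genes 0 lay above and 4 below (26.7%), against 7.91% and 10.2% of all genes. The median log2 fold change of the list was -0.31. The fourth gene below was Ppargc1a, a coactivator of mitochondrial genes (11.8, 9.55 and 9.21 CPM and 5.96, 4.01 and 7.84 CPM). Glucocorticoid-induced genes were mixed, with 4 above (21.1%) and 2 below (10.5%) of 19 (median 0.09). With library size alone 3 lay above and 4 below, beside 565 and 3105 of all 15345 genes. Tsc22d3, the glucocorticoid-induced leucine zipper, was above at 195, 190.3 and 193 CPM and 232, 246 and 236 CPM, as was Saa3, an acute-phase gene, at 149.6, 61.7 and 61.2 CPM and 322, 169.8 and 315 CPM, while Errfi1 and Klf9 lay below.

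Promoters of 4 genes described above are shown to place known motif letters beside these groups. RefSeq (GRCm38.p6) gave 250 bases before the start of 27025 genes, and each was searched on both strands for the CCAAT box (CCAAT), the CHR element (TTTGAA), the cyclic AMP half-site (TGACG), an E2F site (TTTGGCGC or TTTCCCGC), a TATA box (TATAAA) and a nuclear receptor half-site (AGGTCA), none of which contains another. The cyclic AMP half-site was in 11 of the 12 promoters found for the 15 cyclic AMP-induced genes (91.7%) and in 17.9% of all promoters. Other lists also exceeded that share, with 45.5% in the stress response, 41.2% in cholesterol synthesis and 40.9% in adipogenic transcription factors. The CCAAT box was in 21 of 30 mitosis promoters (70.0%) and 17 of 28 replication promoters (60.7%), against 34.5% of all. It was not particular to these lists, with 88.2% in cholesterol synthesis, 72.7% in the unfolded protein and integrated stress response and 58.3% in the TCA cycle list. The E2F site was in 6 of 28 replication promoters (21.4%) against 1.35% of all, and in 0 of 30 mitosis promoters. It was also in 3 of 19 promoters of interferon-stimulated and MHC class I genes (15.8%). The CHR element was in 10 of 30 mitosis promoters (33.3%) against 16.3% of all, and the receptor half-site in 5 (16.7%) against 13.8% of all. In 21 collagen promoters the CCAAT box was in 9 (42.9%) and the TATA box in 2 (9.52%, against 13.0% of all). The 4 sequences run 5′ to 3′ on the strand of the gene and end at the base before its RefSeq start, with capitals marking the motif on either strand. For Nr4a1 this start lies inside the GENCODE span given above, so it is not the start of that span. Nr4a1 (chr15:101266596-101266845, plus strand) holds 4 half-sites, Top2a (chr11:99024190-99024439, minus strand) 6 CCAAT boxes and Mcm5 (chr8:75109259-75109508, plus strand) 1 E2F site. Col3a1 (chr1:45311288-45311537, plus strand) holds 1 match to the letters TATAAA. It begins 117 bases before the start, and whether it serves as a TATA box was not tested. These are matches of letters and not measured binding.
Nr4a1: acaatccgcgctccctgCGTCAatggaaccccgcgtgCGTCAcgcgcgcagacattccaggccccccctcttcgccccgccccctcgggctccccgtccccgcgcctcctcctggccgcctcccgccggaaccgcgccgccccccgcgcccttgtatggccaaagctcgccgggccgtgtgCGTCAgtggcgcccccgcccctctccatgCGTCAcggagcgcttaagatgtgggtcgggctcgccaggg
Top2a: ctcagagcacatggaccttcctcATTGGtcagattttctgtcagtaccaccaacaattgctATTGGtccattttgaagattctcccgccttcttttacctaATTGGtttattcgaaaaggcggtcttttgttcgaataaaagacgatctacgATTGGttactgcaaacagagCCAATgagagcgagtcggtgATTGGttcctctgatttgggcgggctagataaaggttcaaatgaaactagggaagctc
Mcm5: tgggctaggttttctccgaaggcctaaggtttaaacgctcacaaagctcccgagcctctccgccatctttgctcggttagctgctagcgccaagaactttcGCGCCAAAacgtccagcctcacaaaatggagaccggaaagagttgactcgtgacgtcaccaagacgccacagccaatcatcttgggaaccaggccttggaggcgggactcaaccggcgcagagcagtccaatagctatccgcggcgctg
Col3a1: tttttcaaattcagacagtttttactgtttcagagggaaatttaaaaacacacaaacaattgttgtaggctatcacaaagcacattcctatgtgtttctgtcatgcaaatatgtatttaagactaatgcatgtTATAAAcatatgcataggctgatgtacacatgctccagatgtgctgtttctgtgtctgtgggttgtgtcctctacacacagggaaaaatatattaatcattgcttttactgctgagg

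A few inhibitors of adipogenesis kept the days apart, in both directions. Id1 and Id3 encode proteins that bind and silence basic helix-loop-helix factors. Id1 lay at 29.8, 32.5 and 34.3 CPM on day 4 and 17.99, 20.8 and 17.1 CPM on day 8, and Id3 at 112, 139 and 156 CPM and 68.4, 88.4 and 67.6 CPM. Every day 8 library of both was below every day 4 library, and the log2 fold changes were -0.78 ± 0.11 and -0.85 ± 0.16 (edgeR adjusted p = 0.267 and 0.317, and 0.0251 and 0.0318 in the edgeR fit over 4 days). Of 27 tested genes of this list 3 lay above (11.1%), Sox9, Twist1 and Yap1, and 5 below (18.5%), Id1, Id2, Id3, Hes1 and Tgfb3. Over all genes the shares were 7.91% and 10.2%. The median of the list was 0.01, and Yap1 changed sign when scaled by library size alone. Grem1, which binds bone morphogenetic proteins, was lower still, at 26.8, 90.4 and 88.5 CPM and 15.6, 24.9 and 14.6 CPM, although replicate 1 of day 4 and replicate 2 of day 8 nearly met.

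In the lists of beta-oxidation, the TCA cycle, oxidative phosphorylation and cholesterol synthesis most genes had slightly higher mean levels at day 8. Few of them kept the days apart, while over all genes 7.91% lay above and 10.2% below. Of 28 genes of beta-oxidation 0 lay above and 1 below (median log2 fold change 0.54), of 27 genes of the TCA cycle and pyruvate dehydrogenase 0 and 0 (median 0.38), of 76 nuclear-encoded genes of oxidative phosphorylation 1 and 0 (median 0.25) and of 25 genes of cholesterol synthesis 1 and 1 (median 0.28). In 26, 27, 72 and 24 of these genes replicate 1 of day 4 exceeded replicate 2 of day 8, so the days crossed for nearly the whole of each list. Over all genes this held for 51.2%. Without the 2 libraries edgeR called 19, 18, 26 and 16 of them higher and 2, 0, 0 and 0 lower. Of all genes it then called 14.0% higher and 12.8% lower, and the 2 libraries had been set aside because of their values. The summed level of the 13 mitochondrially encoded genes was 39870, 40900 and 39709 CPM at day 4 and 38416, 42992 and 38776 CPM at day 8, which overlap, and 4 of the 13 lay above with TMM scaling (median 0.11) but 0 with library size alone. Glycolysis genes had 2 above and 3 below of 20 (median 0.07), Hk2, a hexokinase, being lower at 42.2, 54.9 and 55.2 CPM and 33.03, 40.3 and 32.7 CPM. Genes of glucose uptake and insulin signalling had 1 and 1 of 24 (median 0.23), fatty acid uptake and binding 1 and 2 of 17 (median 0.12), and the unfolded protein and integrated stress response 0 and 2 of 22 (median -0.08). Of 35 brown and beige adipocyte genes 25 were tested, 1 above and 2 below (median 0.18). Ucp1, the uncoupling protein of brown fat, did not exceed 0.451 CPM in any of the 6 libraries, and Cidea, another brown fat gene, did not exceed 0.145 CPM, so neither was tested. Of the 7 genes the study names in MEFs, Pparg, Ppara, Ppargc1b, Adrb3 and Elovl3 were tested, with 0 above and 0 below and a median log2 fold change of 1.48. Adrb3, the beta-3 adrenergic receptor, had 1.80, 0.115 and 0.341 CPM at day 4 and 4.35, 0.502 and 5.41 CPM at day 8, both far under its 48.8 to 54.1 CPM at day 12.

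The 3 genes with the smallest edgeR p-values were Sod3, Sdk1 and Igsf10. Sod3, the extracellular superoxide dismutase, had 58.4, 62.2 and 65.3 CPM at day 4 and 32.3, 31.6 and 35.01 CPM at day 8 (61.98 ± 3.47 and 32.97 ± 1.81, SD, n = 3), a log2 fold change of -0.90 ± 0.08 (edgeR adjusted p = 0.258). Igsf10, an immunoglobulin superfamily gene, had 78.8, 84.9 and 75.3 CPM and 122, 138 and 127 CPM, a log2 fold change of 0.71 ± 0.08. Sdk1, a cell adhesion molecule, had 23.7, 22.6 and 24.6 CPM and 38.8, 46.8 and 42.2 CPM, a log2 fold change of 0.86 ± 0.09. In each of the 3 the libraries of a day lay close together and the days far apart, and each passed in the edgeR fit over 4 days (adjusted p = 0.0237, 0.0013 and 0.00788). Phospho1, a phosphatase of phosphocholine and phosphoethanolamine, had 18.9, 14.1 and 16.9 CPM and 4.46, 6.48 and 4.82 CPM. Lgr5, a receptor that amplifies Wnt signals, had 46.4, 21.8 and 20.8 CPM and 113, 105 and 113 CPM, and Rspo3, one of its ligands, 12.3, 13.6 and 12.2 CPM and 21.7, 21.3 and 20.3 CPM. Both genes of this ligand and receptor pair were thus higher at day 8 in every library, with log2 fold changes of 1.91 ± 0.32 and 0.74 ± 0.10.

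By the size of the difference in CPM, Gsn, which severs actin filaments, went from 8463, 4090 and 4311 CPM to 9619, 12230 and 10047 CPM, and the imprinted noncoding RNA H19 from 5285, 2100 and 2237 CPM to 10896, 6711 and 11577 CPM. Agtr2, an angiotensin receptor, had 1285, 428 and 403 CPM and 2358, 2090 and 2260 CPM. All 3 were higher in every day 8 library, with replicate 1 of day 4 well above the other 2 of its day. In the other direction the 3 genes given next were not the 3 largest falls in CPM. Flna, of the contractile list, fell by more CPM than Slc7a11 and Nqo1, from 1294, 1250 and 1209 CPM to 1054, 1115 and 1063 CPM. Slc7a11, the cystine transporter, had 82.1, 249.5 and 231 CPM and 48.3, 63.2 and 46.95 CPM. Srxn1, sulfiredoxin, had 367, 469 and 461 CPM and 86.9, 317 and 93.9 CPM, and Nqo1, a quinone reductase, 49.4, 84.1 and 80.7 CPM and 11.2, 44.4 and 9.06 CPM. Slc7a11, Srxn1 and Nqo1 were lower in every day 8 library, as were 10.2% of all genes, with replicate 2 the highest of day 8. These 3 genes are known targets of the oxidative stress factor NRF2. No list of NRF2 targets was counted, and NRF2 activity was not tested. Tnfsf11, the cytokine RANKL, was at 3.31, 13.2 and 14.7 CPM and 0.806, 2.69 and 1.44 CPM, the furthest below of the named genes on the log2 scale at -2.63 ± 0.68.

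Other cell types were looked for by their markers. Macrophage genes were present in all 6 libraries, with Adgre1 at 147, 116 and 111 CPM on day 4 and 124, 178 and 127 CPM on day 8. Their 15 genes summed to 5697, 6530 and 6146 CPM at day 4 and 5468, 9874 and 5486 CPM at day 8, where replicate 2 was the highest. Lyz2 alone had 3709, 5365 and 4960 CPM and 2848, 7352 and 2821 CPM. Of 14 tested 4 lay above (28.6%, against 7.91% of all genes) and 0 below (median 0.12). Those 4 were Csf1r, the receptor for macrophage growth factor, at 148, 123 and 117 CPM and 178, 185 and 193 CPM, and the complement genes C1qa, C1qb and C1qc, with C1qa at 274, 95.8 and 105 CPM and 346, 374 and 375 CPM. Of the 14, 9 had a positive log2 fold change. Those with a negative one included Cd68, Lyz2 and Cd14, the last at 16.3, 85.5 and 86.6 CPM and 8.00, 27.05 and 9.91 CPM. The 23 interferon-stimulated and MHC class I genes summed to 1219, 1280 and 1328 CPM and 1121, 1891 and 1136 CPM, again highest in replicate 2 of day 8, with 2 above and 0 below of 22 (median 0.19). Without the 2 libraries these 2 medians were -0.03 and -0.22. The part of these cells in the differences above was not tested. Of endothelial markers 6 of 10 were tested, with 0 above and 0 below, and Pecam1 did not exceed 0.306 CPM. Of epithelial markers 3 of 9 were tested, with 0 and 0, and Epcam did not exceed 0.137 CPM. Skeletal muscle had 2 of 12 tested, with 0 and 1, and Myod1 was at most 0.135 CPM. Of 10 neural and glial markers 7 were tested, with 0 and 0, Sox10 lying at 26.6 to 33.1 CPM and 24.1 to 33.97 CPM. Cartilage and bone had 4 of 12 tested, with 2 and 1, and 0 of 7 red cell genes were tested.

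Compared with the first step, day 0 to day 4, the middle step differed in many lists, matrix genes and genes induced by hormones among them. Both steps were contrasted in the edgeR fit over 4 days of the 12 WT libraries, which accounts for the shared day 4 libraries. There the tight libraries of days 0 and 12 share the estimate of the spread. The middle step alone had 282 calls in that fit and 0 in the fit of its 6 libraries. The contrast called 2579 of 16359 genes (15.8%) with the more upward change in the middle step and 2407 (14.7%) with the more downward one. Together they made 30.5%. With library size scaling alone these counts were 1923 and 4038, and without the 2 libraries 3843 (23.0%) and 3519, 44.0% in all. Of 26 collagen genes tested 16 had the more upward and 3 the more downward change, of 36 matrix glycoprotein genes 26 and 2, and of 23 protease genes 9 and 1. Col3a1, at 9548 to 11442 CPM on day 0, had a difference of the steps of 2.87 ± 0.45 on the log2 scale (edgeR adjusted p = 0.000815). Lum, at 382 to 416 CPM on day 0, had 5.72 ± 0.79 (edgeR adjusted p = 0.000474). Against this, 0 of 19 glucocorticoid-induced genes had the more upward and 14 the more downward change, and of 15 cyclic AMP-induced genes 0 and 12. Nr4a1, at 9.45 to 11.03 CPM on day 0, had a difference of -4.05 ± 0.21 (edgeR adjusted p = 9.02e-07). DNA replication genes had 0 and 18 of 34, mitochondrially encoded genes 0 and 12 of 13, and macrophage markers 11 and 0 of 14. Interferon-stimulated and MHC class I genes had 13 and 0 of 23, contractile genes 12 and 0 of 22, fibroblast and progenitor markers 13 and 2 of 21, and adipokine genes 4 and 11 of 25. Such a call does not give the direction of the middle step. Median log2 fold changes of the first and middle steps were -1.47 and 0.12 in macrophage markers. They were -1.62 and 0.19 in interferon-stimulated and MHC class I genes, and 1.39 and 0.11 in mitochondrially encoded genes. The smallest p-values of the more upward kind belonged to Pld4, an endolysosomal nuclease of phagocytes, and to Fcer1g and Hpgds, also genes of immune cells, Pld4 going from 142 to 154 CPM on day 0 to 3.02, 2.86 and 2.77 CPM on day 4 and 7.25, 5.43 and 6.44 CPM on day 8. The more downward kind was led by Ugt1a7c and by Prg4, lubricin, which went from 1.42 to 2.18 CPM to 356, 284 and 309 CPM and 534, 375 and 551 CPM.

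The next step, day 8 to day 12, took place in the maintenance medium, and genes of cell division and of carbon metabolism were among those that differed from the middle step. In the matching contrast of the same fit 1029 genes (6.29%) had the more upward change in the middle step. Another 1097 (6.71%) had the more downward one, 2126 in all (13.0%). Without the 2 libraries that stood apart there were 2389 (14.3%) and 2879 (17.2%), 31.5% in all. The total was 3624 without replicate 2 of day 8, 1317 without replicate 1 and 1332 without replicate 3 of day 8. Of 36 mitosis genes 35 had the more upward change in the middle step and 0 the more downward, and of 34 replication genes 25 and 0. Top2a ended at 24.6 to 27.97 CPM on day 12, a difference of the steps of 2.48 ± 0.15 (edgeR adjusted p = 2.27e-05). Mcm5 ended at 9.92 to 10.8 CPM, with 1.79 ± 0.13 (edgeR adjusted p = 3.73e-05). From day 8 to day 12 both genes fell, by 2.50 and 2.06 on the log2 scale (edgeR adjusted p = 2.42e-05 and 2.54e-05). Of 28 genes of fatty acid and triglyceride synthesis 0 had the more upward change in the middle step and 8 the more downward, of 20 glycolysis genes 1 and 7, and of 36 matrix glycoprotein genes 9 and 2. Acacb, an acetyl-CoA carboxylase that makes malonyl-CoA, moved from 20.98, 17.8 and 16.6 CPM on day 4 and 15.6, 15.2 and 17.1 CPM on day 8 to 126 to 134 CPM on day 12, a difference of -3.21 ± 0.18 (edgeR adjusted p = 1.79e-05). The steps taken alone, which share libraries, called 5233 of 15690 genes for day 4 against day 0 (33.4%, with 14.9% higher and 18.4% lower) and 3282 of 15292 for day 12 against day 8 (21.5%, with 12.4% higher and 9.09% lower). Their median log2 fold changes in the collagen list were -1.33, 0.86 and 0.09 from the first to the last step, in the cyclic AMP-induced list 1.96, -0.31 and -0.64, in the mitosis list 0.38, -0.08 and -2.09, and in the list of fatty acid and triglyceride synthesis 0.68, 0.40 and 1.38.

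**Figure D4:**
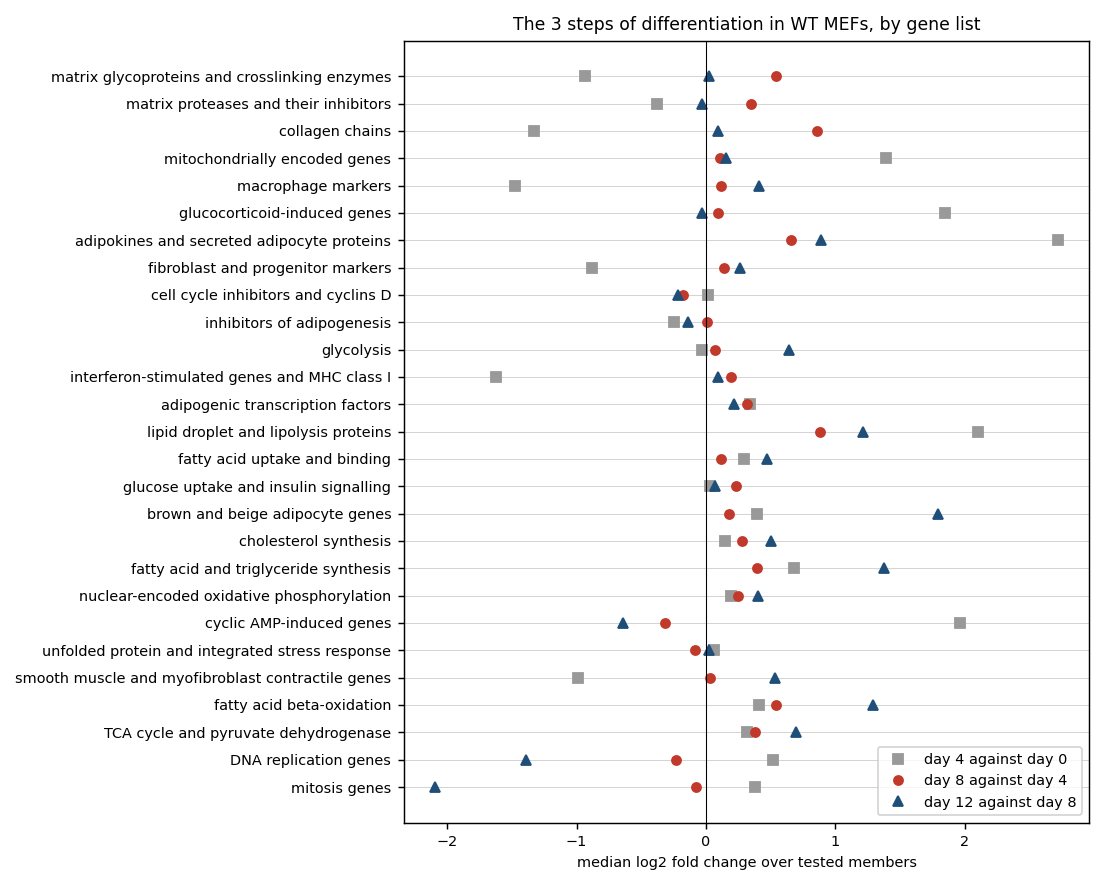
Median log2 fold change over the tested members of each gene list for day 4 against day 0 (grey squares), day 8 against day 4 (red circles) and day 12 against day 8 (blue triangles) in WT MEFs. The collagen list runs from -1.33 to 0.86 to 0.09, and the mitosis list from 0.38 to -0.08 to -2.09.

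In edgeR the same step in DKO MEFs gave no call either, and no gene passed the test of a difference between the genotypes. Hmgn2 transcripts lay at 176, 204 and 195 CPM on day 4 and 151, 147 and 153 CPM on day 8 in WT MEFs and at most 0.113 CPM in the 6 DKO libraries. Hmgn1 was at 95.7, 79.9 and 97.6 CPM and 115, 107 and 86.8 CPM in DKO MEFs, below every WT library of these days but not absent, and whether these counts come from exons outside the deletion cannot be read from gene totals. Within WT MEFs Hmgn2 was lower in every day 8 library (log2 fold change -0.34 ± 0.08, edgeR adjusted p = 0.329), Hmgn5 was higher in every one (17.8, 17.8 and 14.2 CPM and 21.6, 21.8 and 21.2 CPM), and Hmgn1 overlapped (178, 224 and 202 CPM and 167, 184 and 170.0 CPM). Hmgn3 had 50.3, 60.7 and 56.9 CPM and 42.01, 96.2 and 34.9 CPM, and its log2 fold change of 0.05 ± 0.38 turned negative without either of the 2 libraries and was -0.60 without both. In DKO MEFs edgeR called 0 of 15337 genes between days 4 and 8 (0.0%), with 1486 at an unadjusted p under 0.05, and DESeq2 called 145. In DKO libraries 1208 genes lay above (7.88%) and 1034 below (6.74%), 14.6% in all. There too 1 library of each day stood apart, replicate 3, with Fabp4 at 1033, 675 and 2139 CPM on day 4 and 5692, 4243 and 633 CPM on day 8, and without both edgeR called 1903 of 15426 genes. The interaction of genotype and day passed for 0 of 16047 genes (0.0%) in edgeR, with 371 at an unadjusted p under 0.05, and for 0 in DESeq2. Without the 4 libraries that stood apart 86 genes passed, 5 with the higher and 81 with the lower change in DKO MEFs. Col3a1 had a log2 fold change of 1.05 ± 0.24 in DKO MEFs beside 1.59 ± 0.32 in WT MEFs, Lum 2.29 ± 0.54 beside 2.51 ± 0.52, and Nr4a1 -0.98 ± 0.09 beside -1.34 ± 0.15. Collagen genes had 9 above and 2 below in DKO MEFs, and mitosis genes 0 above and 20 below (median -0.68). The difference of these list counts between the genotypes was not tested.

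**Figure D5:**
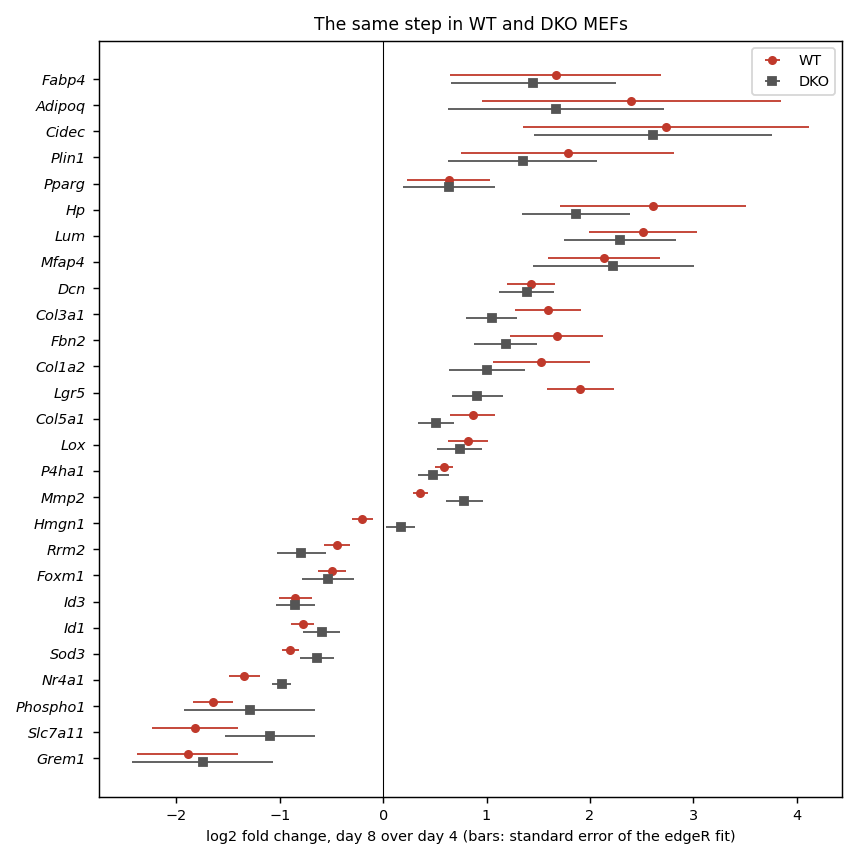
Log2 fold change of day 8 over day 4 with the standard error of the edgeR fit for 27 genes in WT (red circles) and DKO (grey squares) MEFs. Cidec and Adipoq have the widest bars in both genotypes (Adipoq 2.40 ± 1.44 in WT), and Dcn, a matrix gene, has a narrower one (1.43 ± 0.23 in WT).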

How the data were processed

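RNA from WT and DKO MEFs was sequenced as 50 bp paired-end strand-specific libraries. Per the labels the molecule was polyA RNA, whereas the study's methods name a total RNA kit. Per the processing notes the authors used bcl2fastq 2.17, Cutadapt 1.18, STAR 2.7.0f (mm10) and RSEM 1.3.0, and they deposited 1 table of RSEM expected counts for the 24 MEF libraries, not normalized. Reads matching several genes are shared out between them by RSEM, and 5.89% to 7.01% of the values of the 6 libraries were not whole. They were rounded. All 55450 identifiers matched GENCODE M21 (mm10), the source of positions.

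The 6 libraries were filtered with filterByExpr, TMM-scaled and fitted with edgeR 4.0.16 (R 4.3.3, robust quasi-likelihood), with day as the only term. A call needed a Benjamini-Hochberg adjusted p under 0.05 and a 1.5-fold difference or more. The DKO step used its own 6 libraries, the interaction 12, and the contrasts between steps the 12 WT libraries. The fits were first tested on simulated data in which no library stood apart, unlike the libraries here. With simulated 2-fold changes, 5.49% of calls were false in edgeR, 8.38% in DESeq2 and 4.12% in limma-voom. How the tools behave with libraries that stand apart was not simulated.

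The comparison and the 35 gene lists were chosen with earlier results of these data known. Named genes are those the study names for MEFs, the HMGN family, defining markers of cell types, the 5 leading calls of each step contrast, and the leading genes of each list and of the whole table by p, by fold and by CPM. Since edgeR made no call, genes whose days do not overlap took the place of called genes, a choice made after the values were seen, as was leaving out the libraries that stand apart. Col6a1, Col6a2, Col4a2, Timp2, Timp3, C1qb, Id2, Hes1, Eln, Ogn, Fmod, Fbn1, Loxl1, Loxl2, Loxl3, Loxl4, P4ha2, P4ha3, Plod1, Plod2, Mmp14, Mmp19, Adamts4, Timp1, Per1 and Dusp1 fall outside this rule and were named after their values were seen, to complete the account of their lists. Cd14, Lyz2 and Col1a1 were named in the same way, and their values under the alternatives are not given. Alternatives were DESeq2 1.42.0, limma-voom 3.58.1 with quantile normalization, other filters, scaling and fold thresholds, a replicate block, 1 fit over 4 days, and leaving out each library. CPM come from TMM over all 24 libraries, and counting error limits genes of a few counts.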

Additional observations from a re-analysis of the deposited data

How the results depend on the processing

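Between day 4 and day 8 in WT MEFs edgeR called 0 genes, and 0 with library size scaling, limma-voom, a filter of 0.5 CPM in 2 libraries, no fold threshold or a log2 threshold of 1. DESeq2 called 279 (173 higher, 106 lower), no filter on low counts 4 (1 and 3), and the fit over 4 days 282 (168 and 114). Leaving out 1 library gave 0 to 308 calls, 0 to 221 higher and 0 to 161 lower, above 0 only without replicate 1 of day 4 (308) or replicate 2 of day 8 (284). Leaving out both, chosen after seeing the data, gave 4176 (2182 and 1994). Calls among list members went from 0 to 40 with DESeq2, 1 with no filter, 32 in the fit over 4 days, 0 to 47 without 1 library and 327 without both. In DKO MEFs DESeq2 called 145, leaving out 1 library 0, and leaving out replicate 3 of both days 1903. The interaction had 0 calls under every alternative with 1 choice changed, also without any 1 library, and 86 without the 4 libraries. The contrast with the next step, 2126 calls, ranged from 1317 to 3624 without 1 library and was 5268 without both, while that with the first step stayed within 1.5 times of its 4986. The cause was not tested.

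With a replicate block edgeR called 0 genes in WT MEFs (3251 at an unadjusted p under 0.05) and 0 for the interaction, 5023 against the first step and 2124 against the next. Deviations of same-numbered WT libraries of days 4 and 8 correlated at 0.560, 0.544 and -0.461, and not every library correlated best with its own number, so the numbers were not taken as pairs.

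Of 2560 log2 fold changes of 160 named genes under alternatives, 28 changed sign, in 12 genes. Hmgn3 lay between -0.53 and 0.32 without 1 library and at -0.60 without both (edgeR adjusted p = 4.49e-06). Depth limits genes of few counts such as Adrb3, Ucp1 and Cidea, and the spread between libraries limits abundant adipocyte genes such as Fabp4.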
